A study of Homo sapiens with 12 samples.

Results

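The Polo-like kinases are a family of serine/threonine kinases, and the genes PLK1, PLK2, PLK3 and PLK4 were found in the table of gene counts by their Ensembl identifiers, 4 genes of 20595. RNA-seq was performed on A549 and H1792, human lung adenocarcinoma cell lines with MDM2 gain in the study, of which A549 was taken as p53 wild type and H1792 as p53 mutant, although the study's text gives this the other way round in places. Each line received DMSO, the vehicle, or 1 μM RG7112 over 48 h, which gave 4 groups of 3 samples. RG7112 is a nutlin-type compound that occupies the p53 pocket of MDM2. Nothing in the labels says whether replicates came from separate cultures, so p-values measure the spread between these samples, which may be technical. Each group is a single line, so that p53 status and any other difference between A549 and H1792 cannot be told apart.

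PLK1 drives entry into and passage through mitosis, with activation by AURKA and its cofactor BORA, and it acts on centrosomes, kinetochores and the cleavage furrow. PLK4 starts centriole duplication, for which it is recruited by CEP152 and acts with STIL and SASS6. Both genes are transcribed mainly in dividing cells. PLK2 and PLK3 are better known as stress-responsive members that serum, DNA damage or p53 can induce. The comparison of the pair PLK1 and PLK4 with the pair PLK2 and PLK3 asks how each side of the family responded to MDM2 inhibition in each line.

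PLK1 (ENSG00000166851) lies on the plus strand of chromosome 16 from 23677656 to 23690367 in GRCh38, PLK2 (ENSG00000145632) on the minus strand of chromosome 5 from 58453982 to 58460260, PLK3 (ENSG00000173846) on the plus strand of chromosome 1 from 44800225 to 44805990, and PLK4 (ENSG00000142731) on the plus strand of chromosome 4 from 127880861 to 127899195. All 4 are protein-coding genes of GENCODE v29. PLK1 overlaps ERN2 on the opposite strand, whose row held at most 5 counts in any sample, and the antisense gene AC008870.3, which was not analysed here. PLK3 overlaps TCTEX1D4 on the opposite strand and PLK4 holds the small RNA gene RNU6-583P on the same strand, neither of which was analysed here. No source used here states whether counting used strand.

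The promoters are shown because the 2 sides of the family are known for different upstream regulators. RefSeq (GRCh38.p14) gave 1 start site each for PLK1, PLK2 and PLK3 and 3 for PLK4. For each start site with a motif match, and for PLK3, the 250 bases before it are printed 5′ to 3′ on the gene's strand, with motif letters in capitals and every other base in lower case. The windows are chr16:23678639-23678888 on the plus strand for PLK1, chr5:58460087-58460336 on the minus strand for PLK2, chr1:44800127-44800376 on the plus strand for PLK3, and, on the plus strand, chr4:127880643-127880892 for start 1 and chr4:127881381-127881630 for start 3 of PLK4.
PLK1: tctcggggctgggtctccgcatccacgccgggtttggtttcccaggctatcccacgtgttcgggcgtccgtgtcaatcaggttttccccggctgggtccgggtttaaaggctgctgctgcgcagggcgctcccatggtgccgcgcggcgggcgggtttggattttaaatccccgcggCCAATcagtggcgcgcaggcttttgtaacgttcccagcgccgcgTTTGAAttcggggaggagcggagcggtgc
PLK2: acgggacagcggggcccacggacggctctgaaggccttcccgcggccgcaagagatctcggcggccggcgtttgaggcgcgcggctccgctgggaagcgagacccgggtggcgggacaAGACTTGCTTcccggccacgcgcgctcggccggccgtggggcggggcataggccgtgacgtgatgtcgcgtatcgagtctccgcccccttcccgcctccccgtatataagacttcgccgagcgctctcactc
PLK3: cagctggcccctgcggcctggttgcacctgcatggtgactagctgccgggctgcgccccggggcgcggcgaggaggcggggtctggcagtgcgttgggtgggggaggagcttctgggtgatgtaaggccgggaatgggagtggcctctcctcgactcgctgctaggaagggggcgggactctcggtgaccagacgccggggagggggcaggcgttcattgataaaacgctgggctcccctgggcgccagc
PLK4 start 1: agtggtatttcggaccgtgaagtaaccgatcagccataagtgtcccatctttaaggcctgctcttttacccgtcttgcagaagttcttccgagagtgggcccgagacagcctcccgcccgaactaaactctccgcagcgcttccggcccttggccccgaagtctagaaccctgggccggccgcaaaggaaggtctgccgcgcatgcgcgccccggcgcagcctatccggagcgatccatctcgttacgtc
PLK4 start 3: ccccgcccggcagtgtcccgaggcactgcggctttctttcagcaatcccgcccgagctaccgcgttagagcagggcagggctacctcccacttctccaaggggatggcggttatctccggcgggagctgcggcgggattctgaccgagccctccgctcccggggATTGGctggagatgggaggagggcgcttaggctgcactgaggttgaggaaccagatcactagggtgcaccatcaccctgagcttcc

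Motifs were searched on both strands over 300 bases, the 250 before and the 50 from the start site on. The motifs were the CHR element TTTGAA and the CCAAT box, which mark many mitotic promoters, the E2F motif as TTTCCCGC or TTTGGCGC, the cyclic AMP response element TGACGTCA, the serum response element and the p53 decamer. PLK1 held a CCAAT box from -73 to -69 and a CHR element from -29 to -24, both on the gene's strand. PLK2 held a p53 decamer from -132 to -123. PLK3 held none of the 6 motifs. At start 1 of PLK4 a CHR element stood after the start site, from 39 to 44 on the opposite strand, outside the printed bases, and at start 3 a CCAAT box stood from -86 to -82 on the opposite strand. The window of start 2 of PLK4 held no match. Of 35116 RefSeq promoter windows of this length, 15.2% held a CHR element, 34.6% a CCAAT box, 6.63% a p53 decamer, 2.27% the E2F motif, 1.85% the cyclic AMP response element and 1.29% the serum response element. The p53 decamer is the repeated unit of p53 response elements. A match of letters is a description and not a site in use.

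Total counts ranged from 2011916 to 6218825 per sample. Levels are given as CPM, counts scaled to library size after TMM normalization over the 12 samples, and errors are SDs with n = 3. A response was called where the log2 fold change passed 1 in either direction and the adjusted p was under 0.05. KRT8, a keratin of simple epithelia, stood at 11758 ± 1218 CPM in A549 and 949 ± 77.4 CPM in H1792 under DMSO. The adhesion gene EPCAM was low, with 0 to 35 counts over all samples, and CDH1 was nearly absent from H1792, with 0 to 4 counts. Of 8 markers of other cell types, PTPRC, CD3E, PECAM1, VWF and DES had 0 to 2 counts in any sample, while CD14 and RBFOX3 were detected in A549 and TUBB3 in both lines. The summed CPM of the 8 was 70.4 to 79.6 in A549 with DMSO and 60.8 to 108 with RG7112, and 29.6 to 41.3 and 27.7 to 45.0 in H1792. RBFOX3, a neuronal marker, rose from 13.2 ± 0.603 to 29.3 ± 5.09 CPM in A549 (edgeR, log2 fold change 1.14, adjusted p = 0.0227), and its part in the results was not tested. CDKN1A, the p21 inhibitor of cyclin-dependent kinases, rose in A549 by 3.58 on the log2 scale (adjusted p = 0.0252), and MDM2 itself rose by 2.99 (adjusted p = 0.0102). In H1792 the values were 0.15 (adjusted p = 0.882) and -0.05 (adjusted p = 0.928).

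PLK1 mRNA fell with RG7112 in both lines. In A549 the DMSO samples held 30.1, 26.5 and 32.5 CPM and the RG7112 samples 2.25, 6.496 and 4.15 CPM. All treated samples were below all controls, and the treated samples held 14, 14 and 15 counts against 98 to 152 in the controls. The mean went from 29.7 ± 2.98 to 4.30 ± 2.13 CPM, 7.30-fold lower (edgeR quasi-likelihood test, log2 fold change -2.87, SE 0.41, adjusted p = 0.00820). The call was kept when any sample was left out, with values from -3.27 to -2.49. In bulk samples, fewer dividing cells and less PLK1 mRNA per cell cannot be told apart.

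In H1792 the DMSO samples held 15.6, 31.6 and 23.6 CPM of PLK1 and the RG7112 samples 11.8, 9.35 and 7.86 CPM. Again no treated sample reached a control, but the controls spread over a wider range than in A549. The mean went from 23.6 ± 8.003 to 9.69 ± 2.01 CPM, 2.48-fold lower (edgeR, log2 fold change -1.31, SE 0.31, adjusted p = 0.0188). This call was lost without H1792 DMSO replicate 2 (-1.06, adjusted p = 0.0629), DMSO replicate 3 (-1.31, adjusted p = 0.0516), RG7112 replicate 2 (-1.28, adjusted p = 0.0682) or RG7112 replicate 3 (-1.19, adjusted p = 0.0677). The log2 response in A549 minus that in H1792 was -1.49 (SE 0.53, 95% interval -2.66 to -0.32), which did not pass the test (adjusted p = 0.0690). It passed without A549 RG7112 replicate 2 (-1.93, adjusted p = 0.0248) and with DESeq2 (-1.47, adjusted p = 0.0440). Under DMSO the lines differed by 0.26 (A549 minus H1792, 95% interval -0.52 to 1.03, adjusted p = 0.570).

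PLK4 was the least abundant member and its response differed between the lines. In A549 the DMSO samples held 13, 20 and 14 counts (3.99, 3.49 and 3.47 CPM) and the RG7112 samples 2, 1 and 0 counts (0.322, 0.464 and 0 CPM). The groups did not overlap, and the mean went from 3.65 ± 0.296 to 0.262 ± 0.238 CPM. The fitted log2 fold change was -3.74 (SE 0.72, edgeR, adjusted p = 0.0227), and over the pooled 47 and 3 counts the level was 14.4-fold lower, with a counting interval (exact, 95%) of 4.64 to 72.4 that covers counting error only. PLK4 passed the filter on low counts through the DMSO samples alone. Its call was kept without A549 RG7112 replicate 3 (-3.23, adjusted p = 0.0422) and lost without DMSO replicate 1 (-3.68, adjusted p = 0.0945), 2 (-3.78, adjusted p = 0.107) or 3 (-3.77, adjusted p = 0.0694), or RG7112 replicate 1 (-4.09, adjusted p = 0.103) or 2 (-4.10, adjusted p = 0.0688).

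In H1792 PLK4 had 2, 5 and 5 counts with DMSO (0.677, 1.09 and 2.11 CPM) and 7, 28 and 23 with RG7112 (1.84, 5.13 and 5.48 CPM). RG7112 replicate 1 lay below the highest control, so the groups overlapped. The means were 1.29 ± 0.736 and 4.15 ± 2.01 CPM (exact permutation test, two-sided, on log2(CPM + 1), p = 0.2, where 0.1 is the smallest p that 3 against 3 samples allow). The gene did not pass the filter of the H1792 fit. With no filter the log2 fold change was 1.71 (adjusted p = 0.110), and in a fit of all 12 samples it was 1.62 (adjusted p = 0.0856). Only without H1792 RG7112 replicate 1 was it called (2.04, adjusted p = 0.0409). The difference between the responses was -5.35 on the log2 scale (A549 minus H1792, SE 0.99, adjusted p = 0.00499), and it passed the test with any sample left out (-5.81 to -4.84). PLK4 passed the filter of that fit through A549 DMSO and H1792 RG7112 samples, where it was high, so the value is a description. Under DMSO the A549 level was the higher by 1.46 on the log2 scale, which did not pass (adjusted p = 0.0794).

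PLK2 rose with RG7112 in H1792. The H1792 DMSO samples held 36.6, 16.8 and 32.4 CPM and the RG7112 samples 66.1, 69.3 and 68.4 CPM. The treated samples lay close together and above every control. The mean rose from 28.6 ± 10.4 to 67.9 ± 1.66 CPM, 2.35-fold (edgeR, log2 fold change 1.23, SE 0.29, adjusted p = 0.0196). The call was lost without H1792 DMSO replicate 2, where the fold change fell under the threshold (0.93, adjusted p = 0.0173), and without RG7112 replicate 2 (1.22, adjusted p = 0.0600) or 3 (1.22, adjusted p = 0.0590). It was also lost after a correction for GC content (0.86, adjusted p = 0.0580).

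In A549 PLK2 was at 165, 163 and 79.1 CPM with DMSO and 227, 191 and 153 CPM with RG7112. DMSO replicate 3 was the lowest A549 sample, and the lowest treated sample was below the other two controls. The means were 136 ± 49.1 and 190 ± 36.9 CPM, and the difference did not pass the test (log2 fold change 0.47, 95% interval -0.23 to 1.18, edgeR, adjusted p = 0.398). Without DMSO replicate 3 the value was 0.20 (adjusted p = 0.570). The responses of the lines differed by -0.70 (A549 minus H1792, 95% interval -1.65 to 0.26, adjusted p = 0.275), so a call in H1792 alone does not show a different response. What did differ was the level under DMSO, 2.20 higher in A549 on the log2 scale (SE 0.32, adjusted p = 0.000226), and this was called with any sample left out (1.91 to 2.48).

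PLK3 values were higher with RG7112 in A549, but the difference missed the threshold. The A549 DMSO samples held 8.91, 7.51 and 10.9 CPM and the RG7112 samples 15.9, 25.1 and 23.0 CPM. Every treated sample was above every control. The means were 9.11 ± 1.71 and 21.3 ± 4.78 CPM (edgeR, log2 fold change 1.21, SE 0.30, adjusted p = 0.0557), and DESeq2 called the same contrast (1.21, adjusted p = 0.0212). In H1792 the DMSO samples were at 18.3, 29.8 and 11.8 CPM and the RG7112 samples at 12.1, 17.8 and 19.1 CPM. These groups overlapped (means 19.97 ± 9.14 and 16.3 ± 3.70 CPM, log2 fold change -0.32, 95% interval -1.18 to 0.53, adjusted p = 0.518), and without H1792 DMSO replicate 2 the sign turned (0.068).

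The PLK3 responses differed between the lines by 1.62 on the log2 scale (A549 minus H1792, SE 0.50, adjusted p = 0.0413). That difference passed without A549 DMSO replicate 3, A549 RG7112 replicate 1 or H1792 DMSO replicate 3, and was lost when any of the other 9 samples was left out, with values over all these settings from 1.18 to 1.88 and adjusted p from 0.0232 to 0.105. It was 1.18 without H1792 DMSO replicate 2 (adjusted p = 0.105) and 1.08 after a correction for GC content (adjusted p = 0.154). Under DMSO the A549 level was lower by 1.22 (SE 0.36, adjusted p = 0.0159), a call lost without A549 DMSO replicate 2 (-1.06, adjusted p = 0.0653) or H1792 DMSO replicate 2 (-0.79, adjusted p = 0.0896).

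**Figure D1:**
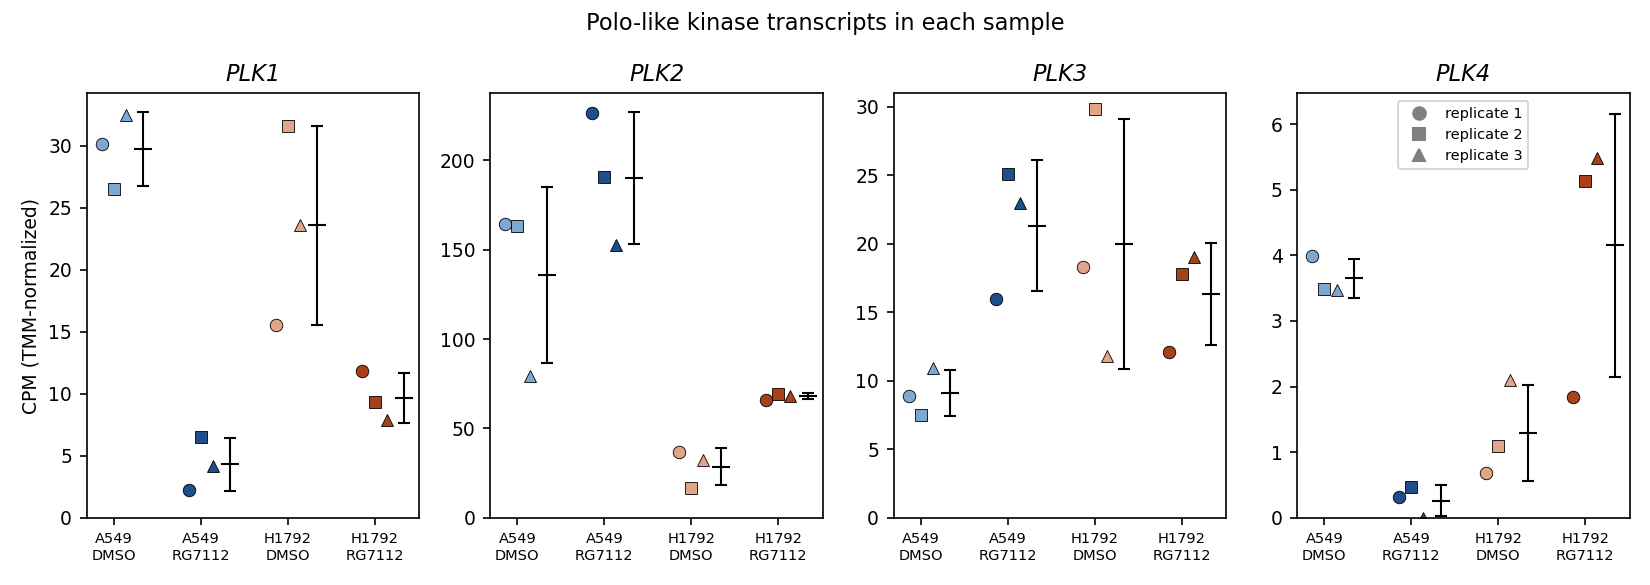
CPM (TMM-normalized, linear axes from 0) of each Polo-like kinase gene in the 12 samples by cell line and treatment, with circles, squares and triangles for replicates 1, 2 and 3 and black bars for the mean and SD of each group. PLK1 was lower with RG7112 in both lines without overlap, PLK2 was higher without overlap in H1792, PLK3 in A549, and PLK4 was nearly absent in A549 with RG7112.

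Side by side, 2 of the 4 genes were called lower in A549 (PLK1 and PLK4), where 3.01% of 10739 tested genes were called lower and 3.18% higher. PLK4 passed the filter there only through the DMSO samples, in which it was high, so that its call is a description and the count is not read against that share. The 0 called higher stands beside 1 gene higher at an unadjusted p under 0.05 (PLK3), which DESeq2 called. In H1792, of 3 tested genes, PLK1 was called lower, as were 4.34% of 9914 tested genes, and PLK2 higher, as were 10.3%. PLK1 was the only member called in both lines, PLK4 not having been tested in H1792. For the difference between responses, PLK3 was called higher in A549, as were 10.4% of 11666 tested genes, and PLK4 lower, as were 11.4%. PLK4 passed that filter too only through groups in which it was high, so its difference is not read against that share. Between the DMSO groups, 34.9% of tested genes were called in either direction, and PLK2 and PLK3 were among them, with opposite signs. The CPM of treated and control samples did not overlap for PLK1, PLK3 and PLK4 in A549, where this held for 31.7% of tested genes, and for PLK1 and PLK2 in H1792, where it held for 52.6%.

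**Figure D2:**
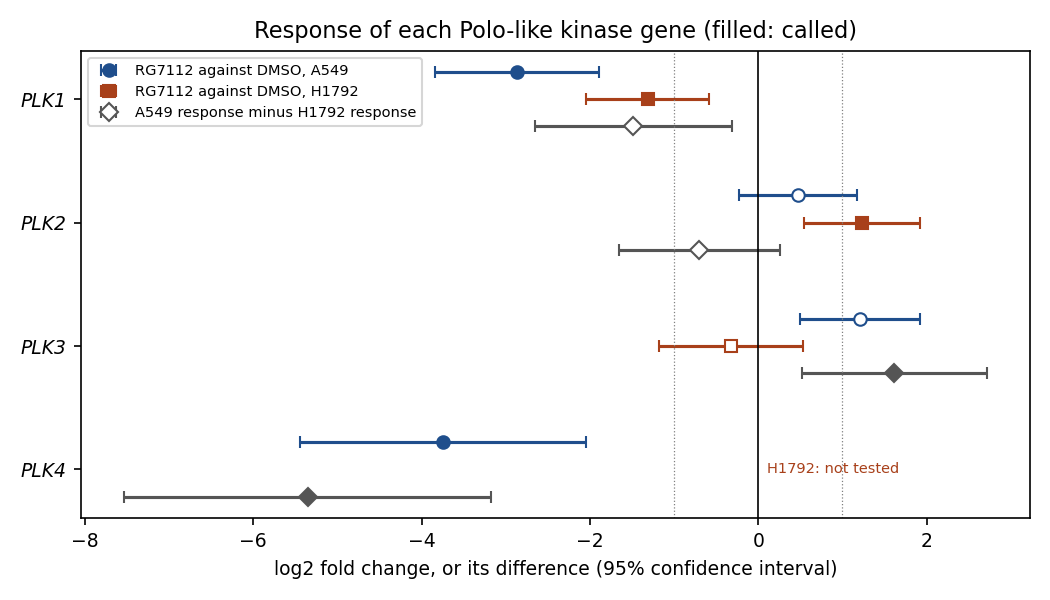
Log2 fold change of RG7112 against DMSO in A549 (circles) and H1792 (squares), and the A549 response minus the H1792 response (diamonds), for each gene with 95% confidence intervals from edgeR; filled symbols were called and the dotted lines mark -1 and 1. The PLK1 and PLK4 values in A549 were -2.87 and -3.74, while the PLK2 and PLK3 values were 0.47 and 1.21.

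Per kb of merged exons, PLK4 was the least abundant member in every group, and PLK2 had the highest mean, without standing clear of PLK3 and PLK1 in H1792 with DMSO. In A549 with DMSO the order was PLK2 (28.5 ± 10.3 CPM per kb), PLK1 (6.24 ± 0.626), PLK3 (2.62 ± 0.490) and PLK4 (0.815 ± 0.0660), with no overlap between neighbours over the samples. With RG7112 PLK3 (6.13 ± 1.37 CPM per kb) stood above PLK1 (0.903 ± 0.447), again with no overlap between neighbours. In H1792 with DMSO, PLK2 (5.996 ± 2.19 CPM per kb), PLK3 (5.74 ± 2.63) and PLK1 (4.95 ± 1.68) overlapped and their order could not be told from the replicate spread. With RG7112 the H1792 order was PLK2 (14.2 ± 0.348 CPM per kb), PLK3 (4.69 ± 1.06), PLK1 (2.03 ± 0.423) and PLK4 (0.926 ± 0.448), without overlap between neighbours. Dividing by the longest transcript instead gave the same order in 4 of 4 groups.

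PLK1 made up 17.4% ± 6.57 of the summed CPM per kb in A549 with DMSO and 1.97% ± 0.974 with RG7112, and 28.9% ± 7.87 and 9.40% ± 2.60 in H1792. The share of PLK2 was 72.9% ± 10.6 and 84.5% ± 5.01 in A549, and 36.3% ± 15.5 and 65.2% ± 2.87 in H1792. PLK3 made up 7.43% ± 3.52 and 13.4% ± 4.18 in A549, and 33.0% ± 11.8 and 21.3% ± 3.62 in H1792, and these groups overlapped in both lines. The sum itself was 38.1 ± 9.41 and 46.9 ± 6.73 CPM per kb in A549, and 17.0 ± 1.76 and 21.9 ± 1.44 in H1792. Within samples, the log2 ratio of PLK2 to PLK1 went from 2.12 ± 0.73 to 5.58 ± 0.95 in A549 and from 0.26 ± 1.09 to 2.83 ± 0.32 in H1792, without overlap in either line. The log2 ratio of PLK3 to PLK1 went from -1.72 ± 0.13 to 2.41 ± 0.44 in A549, without overlap, and from -0.28 ± 0.64 to 0.75 ± 0.64 in H1792, where the groups overlapped.

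**Figure D3:**
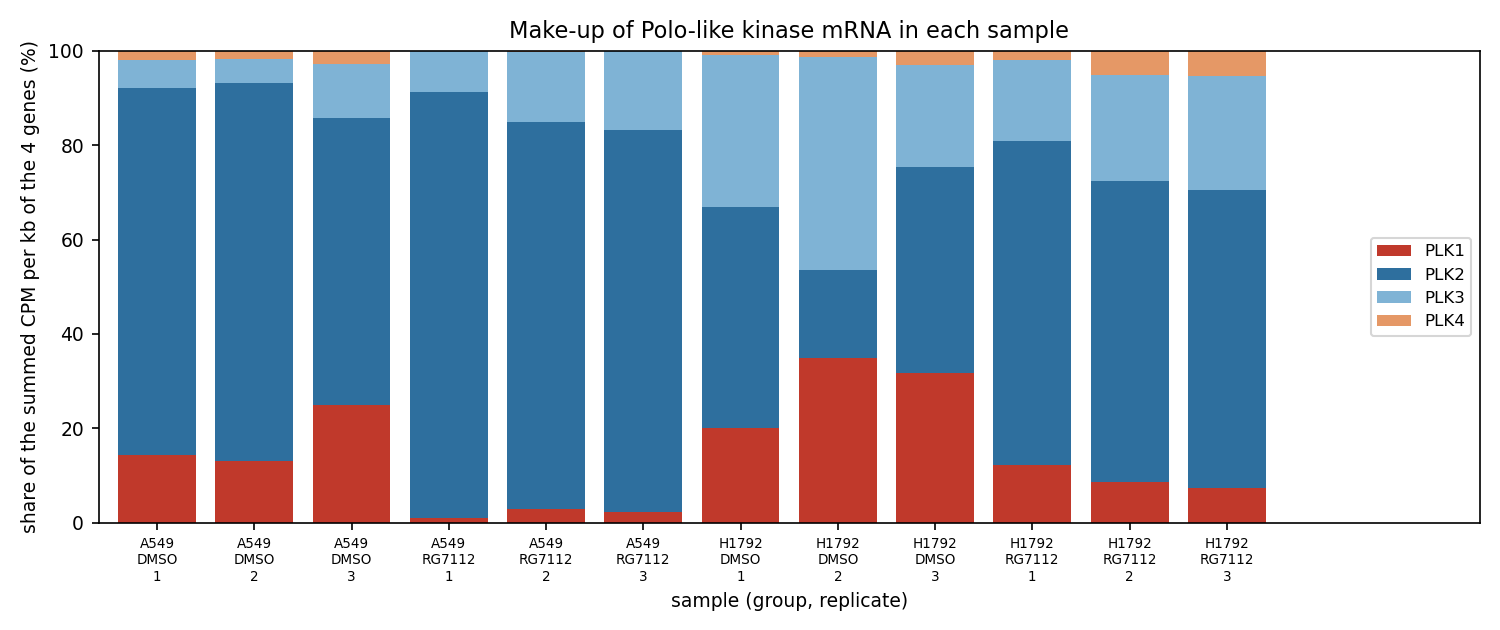
Share (%) of each gene in the summed CPM per kb of PLK1, PLK2, PLK3 and PLK4, a stacked bar for each of the 12 samples. The PLK1 share was 0.899% to 2.80% in the 3 A549 samples with RG7112 and 13.0% to 24.97% in the 3 with DMSO.

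H1792 DMSO replicate 2 stood apart for 3 of the 4 genes, with the highest PLK1 and PLK3 and the lowest PLK2 of its group. GC content was 57.2% for PLK1, 59.6% for PLK3, 44.1% for PLK2 and 39.5% for PLK4. The log2 difference of H1792 DMSO replicate 2 from the other 2 of its group had a Spearman correlation of 0.073 with GC content. The values furthest from 0 were 0.448 for A549 RG7112 replicate 3 and -0.364 for A549 RG7112 replicate 1. The part of GC content in single samples was not tested. Across genes, the H1792 response had a Spearman correlation of -0.472 with GC content (9165 genes), and the A549 response one of 0.255 (9941 genes). After a correction for GC content in H1792 PLK1 was still called (-1.05, adjusted p = 0.0389), PLK2 was not, and PLK3 turned to 0.025. In A549 the corrected values were -3.02 for PLK1 (adjusted p = 0.00611), 0.60 for PLK2, 1.03 for PLK3 and -3.55 for PLK4 (adjusted p = 0.0195), with the same calls.

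**Figure D4:**
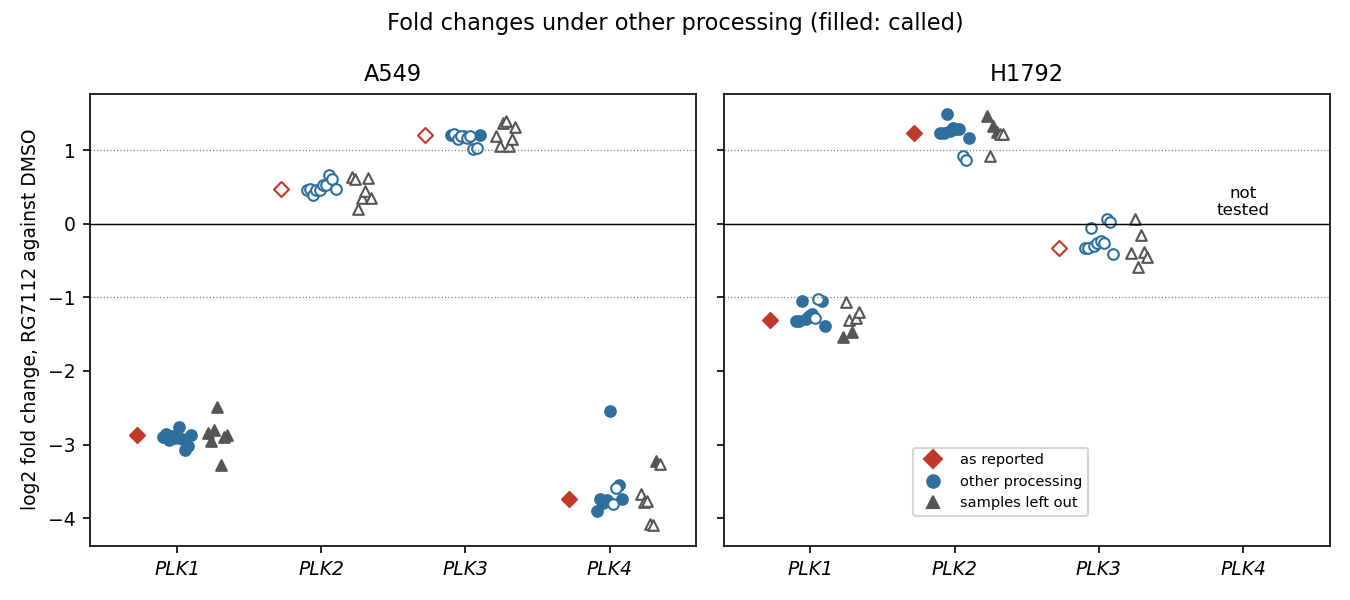
Log2 fold change of RG7112 against DMSO for each gene in A549 (left) and H1792 (right) as reported (diamonds), under other processing (circles) and with samples left out (triangles); filled symbols were called and dotted lines mark -1 and 1. PLK1 in A549 stayed between -3.27 and -2.49 and was called throughout, and PLK3 in H1792 crossed 0.

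The PLK1 network list holds 26 genes that activate PLK1, act with it in mitosis or are its substrates, and 25 were in the table. In A549, 15 of 21 tested were called, all lower, beside 3.01% of all tested genes, and the other 6 values were also below 0, with a median log2 fold change of -3.26 beside -0.01 over all tested genes. CDK1, the mitotic cyclin-dependent kinase, fell from 18.9 ± 3.62 to 0.316 ± 0.273 CPM (log2 fold change -5.76, adjusted p = 0.00240), the treated samples holding 0 to 3 counts. CDK1 thus passed the filter on low counts through the DMSO samples alone, so that its call is a description. The count of 15 is therefore not read against the 3.01%. KIF20A, a kinesin of cytokinesis that docks PLK1, fell from 116 ± 6.70 to 4.71 ± 2.47 CPM (-4.56, adjusted p = 0.000700). AURKA fell from 182 ± 30.7 to 33.4 ± 3.902 CPM (-2.46, adjusted p = 0.000881), and CDC25C, a phosphatase that activates CDK1, was at 8.95 ± 2.92 and 1.16 ± 1.87 CPM (-2.92, adjusted p = 0.137).

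In H1792, 2 of 22 tested genes of the PLK1 network were called, both higher, a share near the 10.3% of all tested genes called higher. The median was 0.29 beside 0.01 over all tested genes, with 15 values above 0 and 7 below. Among the 7, named after their values were seen, were CCNB2, a mitotic cyclin (-1.74, adjusted p = 0.0822), and CDC20, an activator of the anaphase-promoting complex (-0.87, adjusted p = 0.0128, under the fold threshold). The 2 called were ECT2 and BUB1. ECT2, a factor of cleavage furrow formation in cytokinesis, rose from 8.04 ± 1.69 to 22.3 ± 6.95 CPM (1.46, adjusted p = 0.0155), and BUB1, a checkpoint kinase that recruits PLK1 to kinetochores, rose from 72.3 ± 7.32 to 159 ± 23.3 CPM (1.12, adjusted p = 0.00404). After a correction for GC content 0 of the list were called in H1792 by edgeR, beside 2 with DESeq2 and 13 at an unadjusted p under 0.05, both without the correction. With adjusted p alone and no fold threshold, 10 were called, a setting at which the share of all tested genes was not taken. AURKA was at 139 ± 43.7 and 172 ± 35.2 CPM (0.28, adjusted p = 0.418), and CDC25C at 7.09 ± 2.03 and 14.1 ± 1.87 CPM (0.95, adjusted p = 0.0391, under the fold threshold). BORA had 0 to 3 counts in every sample except H1792 with RG7112, where it had up to 13, and was not tested. The difference between the lines was called for 19 of 23 tested genes of the list, all lower in A549 (11.4% of all tested genes). AURKA was among them at -2.67 (edgeR, adjusted p = 0.000786). CDK1 and CENPU, also among them, had 0 to 3 and 0 to 1 counts in A549 with RG7112. Both passed that filter only through groups in which they were high, so the count of 19 is not read against that share.

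The centriole duplication list holds 18 genes that act with PLK4, all in the table. In A549, 0 of 10 tested were called (edgeR), with 3 at an unadjusted p under 0.05 and 0 called by DESeq2, and the median log2 fold change was -0.96. CEP152 was at 6.79 ± 0.360 and 2.78 ± 0.283 CPM (-1.29, adjusted p = 0.0623). In H1792, 1 of 13 was called higher (CEP120, a centriole elongation factor, 1.86, adjusted p = 0.0183) and 1 lower (RBM14, an RNA-binding protein that limits ectopic centriole assembly, -3.57, adjusted p = 0.00565), beside 10.3% and 4.34% of all tested genes, with a median of 0.53. RBM14, with 3 to 24 counts under RG7112, passed the filter through the DMSO samples, in which it was high, so that its call is a description. These counts of called genes are therefore not read against the shares. CEP152 was at 9.72 ± 2.17 and 9.68 ± 2.79 CPM in H1792 (-0.03, adjusted p = 0.949). STIL had 0 to 23 counts in a sample and was not tested, and SASS6 was listed at 0 in all 12 samples. The responses differed for 4 of 14 tested genes, all lower in A549, beside 11.4% of all tested genes. CEP97 was among the 4, with 0 to 5 counts in A549 with RG7112 and 0 to 2 in H1792 with DMSO. It passed that filter only through groups in which it was high, so the count of 4 is not read against that share.

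The p53 target list holds 28 genes, without PLK2 and PLK3, 27 of them in the table. In A549, 8 of 26 tested were called, all higher, beside 3.18% of all tested genes, with a median log2 fold change of 1.20. CDKN1A went from 37.3 ± 11.5 to 452 ± 440 CPM and MDM2 from 8.58 ± 5.02 to 70.1 ± 11.3 CPM. The count was 5 without A549 DMSO replicate 1 and 3 without A549 DMSO replicate 2. PLK2 (0.47) and PLK3 (1.21) were below and near that median, and neither was called. In H1792, 4 of 19 were called higher, beside 10.3% of all tested genes, among them RRM2B, a ribonucleotide reductase subunit (2.38, adjusted p = 0.0249), and PPM1D, a phosphatase that dampens p53 signalling (2.05, adjusted p = 0.0112), and 1 lower (DDB2, a DNA damage recognition factor, -1.18, adjusted p = 0.0365). RRM2B and PPM1D, with 1 to 3 and 7 to 13 counts under DMSO, passed the filter only through the RG7112 samples, in which they were high. Their calls are descriptions, and the count of 4 is not read against the 10.3%. The median in H1792 was 0.21, and PLK2 stood at 1.23 and PLK3, which was not called, at -0.32. The H1792 count of 5 called genes became 3 with DESeq2 and 1 after the GC correction. The responses of 10 of 26 tested genes differed, all higher in A549, beside 10.4% of all tested genes.

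The immediate-early list holds 23 genes of the rapid serum response, a class to which PLK2 and PLK3 are also known to belong, and 17 were in the table. In A549, 2 of 10 tested were called, both lower, beside 3.01% of all tested genes, FOS (-2.27, adjusted p = 0.0236) and MYC (-1.32, adjusted p = 0.00949), transcription factors of growth control, with a median of -0.01. In H1792, 1 of 12 was called, JUND, an AP-1 subunit that was lower (-1.06, adjusted p = 0.0481), beside 4.34% of all tested genes, with a median of 0.42. No gene of the list was called in H1792 after the GC correction or with the replicate block, where 3 had an unadjusted p under 0.05 without either and DESeq2 called 1. PLK2 stood at 1.23 in H1792 and 0.47 in A549, and PLK3 at -0.32 in H1792 and 1.21 in A549. Of these values, only that of PLK2 in H1792 was called.

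**Figure D5:**
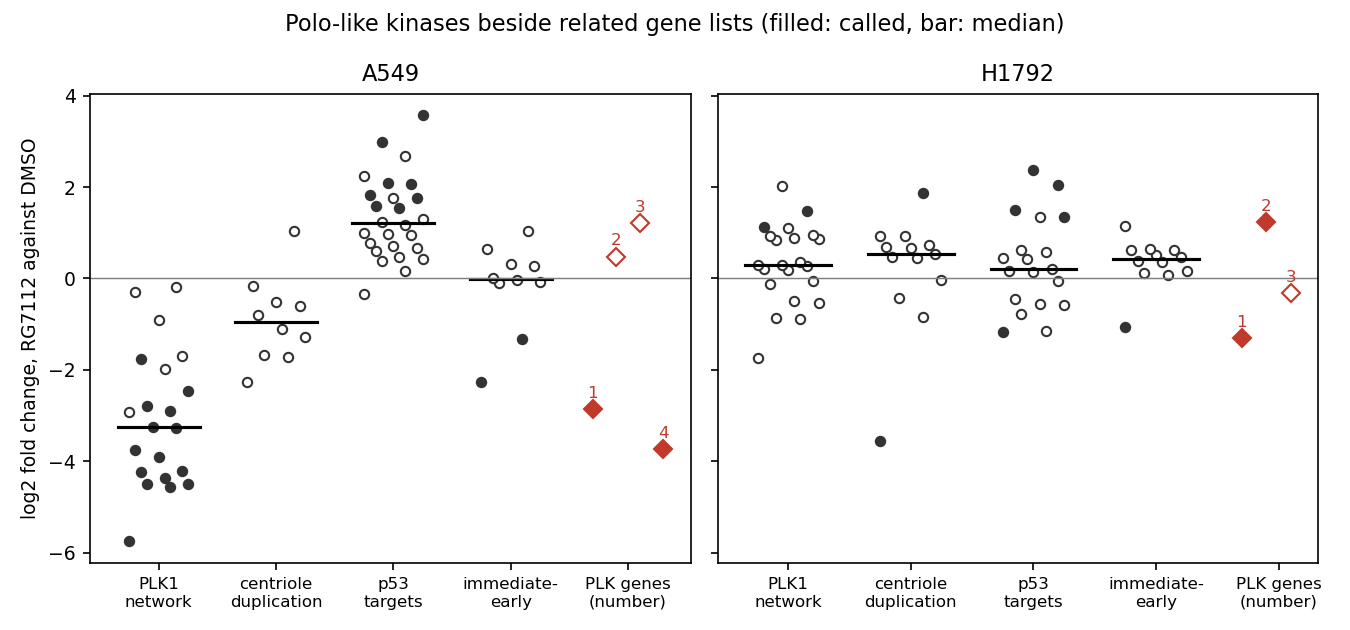
Log2 fold change of RG7112 against DMSO in A549 (left) and H1792 (right) for each tested gene of 4 lists (black circles, bar at the median) and for the numbered Polo-like kinase genes (red diamonds), with filled symbols for called genes. The PLK1 network median was -3.26 in A549 and 0.29 in H1792, while PLK1 was at -2.87 and -1.31.

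Over the 12 samples, the members' log2 CPM values gave Pearson r of 0.553 for PLK1 with PLK4, -0.504 for PLK1 with PLK2, -0.446 for PLK1 with PLK3, -0.540 for PLK3 with PLK4, -0.294 for PLK2 with PLK3 and -0.168 for PLK2 with PLK4. These are descriptions over samples that share cell line, treatment and library. Among 11665 other genes, those most like PLK1 were SPAG5 (r = 0.957), a spindle protein, AC093323.1 (0.944) and MXD3 (0.937), a MAX partner. For PLK4 they were CDC7 (0.950), the kinase that fires replication origins, MND1 (0.939), a meiotic recombination factor, and SMC4 (0.930), a condensin subunit. PLK2 was most like SUMF1 (0.980), MICAL3 (0.976) and EXD2 (0.9752), and PLK3 like NIPAL3 (0.845), WDR83 (0.845) and ZDHHC1 (0.830), the weakest likeness of the 4. By Spearman's correlation only MXD3 for PLK1 and WDR83 for PLK3 were again among the closest 3.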

How the data were processed

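Poly-A RNA of 12 samples was sequenced in pairs on a NextSeq500. The authors ran kallisto 0.45.0 on GRCh38 and deposited the expected counts (estimated counts) per gene as whole numbers, without normalization. The labels give RG7112 as 1 μM and the column names as 0.1 μM, and the labels were followed. Read length and sequencing instrument are given differently by labels and paper, and the NextSeq500 is that of the labels. Genes were tested per line with edgeR 4.0.16 in R 4.3.3 (filterByExpr, minimum count 10, TMM, robust quasi-likelihood fit, Benjamini-Hochberg adjustment over all genes), and the difference between lines and the DMSO levels over all 12 samples. The difference had no fold threshold, only adjusted p (0.05). A gene could pass the filter through a single group in which it was high, so counts of called list genes are descriptions. DESeq2 1.42.0, limma 3.58.1, other scaling, other filters, GC correction (loess, span 0.5), a replicate block and left-out samples were alternatives. The scripts were tested on simulated data. Replicates differed by 5.12 to 23.3 times counting noise (chi-square per degree of freedom), more than a library counted again would. The members and lists were chosen with earlier results of these data known. Named list genes were the called members with the largest fold changes, plus CDKN1A, MDM2 and direct partners, and for each member the 3 genes with the highest Pearson r of log2 CPM (prior count 2). Motif letters and sequences came from RefSeq and positions from GENCODE v29. A table of proteins was not used here. A marker gene is not reported here.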

Additional observations from a re-analysis of the deposited data

Results flagged for a closer look

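The responses of 2 members differed between the cell lines by the test of the difference itself. For PLK4 the log2 response in A549 minus that in H1792 was -5.35 (SE 0.99, edgeR, adjusted p = 0.00499), on 47 and 3 pooled counts in A549 and 12 and 58 in H1792. PLK4 passed the filter only through groups in which it was high, so this value is a description. For PLK3 the difference was 1.62 (SE 0.50, adjusted p = 0.0413), lost when any of 9 of the 12 samples was left out.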

How the results depend on the processing

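Depth limited PLK4 most. The filter of at least 10 counts in every sample removed it, so that alternative gave no value for it. Scaling by library size alone put the median log2 value over all genes at 0.27 in H1792, -0.37 for the difference between responses and 0.35 under DMSO, where TMM put it at 0.01, 0.02 and 0.09. PLK1 in A549, the PLK4 difference and the PLK2 level under DMSO were called under every alternative that gave a value. The PLK4 difference stays a description, since PLK4 passed the filter only through groups in which it was high. The cause of the changes below was not tested.

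PLK3 in A549 was called with DESeq2 (1.21), at least 10 counts in every sample (1.19) and all 12 samples in one fit (1.21). The PLK1 difference passed with DESeq2 (-1.47), library size only (-1.89), at least 10 counts (-1.64), GC correction (-1.88) and block with GC correction (-1.96). The PLK3 difference was lost with library size only (1.20), no filter (1.52), GC correction (1.08) and block with GC correction (1.03). Under DMSO, library size only ended the PLK3 call (-0.95), while PLK4 was called with library size only (1.72) and limma-trend (1.25). In H1792 GC correction ended the PLK2 call (0.86), left 1 member called and turned PLK3 to 0.025.

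For each gene, log2 CPM was taken as the deviation from the mean of its group. Over genes, the deviations of DMSO samples were correlated with those of RG7112 samples of the same line. Deviations within a group cancel out, so positive correlations go with negative ones. Between same-numbered samples the deviations correlated at 0.146, 0.0674 and 0.294 in A549 and at -0.0388, -0.0185 and 0.000165 in H1792. In A549 the replicate 3 samples correlated best with each other, and at -0.234 to -0.141 with replicates 1 and 2. Among replicates 1 and 2 of A549 the values were 0.0674 to 0.146, whatever the number. In H1792 all values lay between -0.0388 and 0.0398. Whether the number marks a shared batch was not tested. With the replicate block 1 member was called in each line: PLK4 in A549 (-3.81) and PLK1 in H1792 (-1.28) were lost, as was the PLK3 difference (1.57). Genes called went from 665 to 612 in A549 and from 1450 to 995 in H1792. The block with GC correction also ended PLK4 in A549 (-3.59) and, in H1792, PLK1 (-1.02) and PLK2 (0.92), and turned PLK3 to 0.073.

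With samples left out the ranges were -4.10 to -3.23 for PLK4 in A549 (-3.26 without replicate 3 of both treatments), -1.54 to -1.06 for PLK1, 0.93 to 1.47 for PLK2 and -0.59 to 0.068 for PLK3 in H1792 (0.068 without H1792 DMSO replicate 2). For the differences they were -1.93 to -1.14 for PLK1 (called without A549 RG7112 replicate 2) and 1.18 to 1.88 for PLK3, and under DMSO -1.49 to -0.79 for PLK3. Members called were 1 to 2 in A549 and 0 to 3 in H1792.

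With a sample left out, the counts of list genes called in A549 were 11 to 16 for the PLK1 network (15 with all samples), 3 to 11 for p53 targets (8) and 0 to 2 for immediate-early genes (2, with 0 without A549 DMSO replicate 2). In H1792 they were 1 to 4 for the PLK1 network (2, with 4 without DMSO replicate 1 or 3 and 1 without RG7112 replicate 3), 1 to 3 for centriole duplication (2, with 1 without DMSO replicate 2 or RG7112 replicate 2 or 3), 2 to 4 for p53 targets (5, with 2 without DMSO replicate 2 or RG7112 replicate 2 or 3) and 0 to 1 for immediate-early genes (1). With all samples and adjusted p alone, the H1792 counts were 10 for the PLK1 network and 6 for centriole duplication. They were 7 for p53 targets and 3 for immediate-early genes. The share of all tested genes was not taken at that setting.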

Other observations

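PLK5, a further family member that was not among the genes described, had 0 to 5 counts in a sample and was not tested.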
